A study of Mus musculus with 18 samples.

Results

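Vehicle-treated AML12 cells harvested at T30 were compared with vehicle-treated AML12 cells harvested at T20. The comparison was fixed by the labels: it takes the 3 DMSO libraries exposed from T24 to T30 and the 3 DMSO libraries exposed from T14 to T20, which are 6 of the 18 libraries of the study, and pairs them by replicate number. AML12 is a mouse hepatocyte line that is not transformed. It was established from mice carrying a human TGFα transgene and divides in culture, so it stands for liver cells kept outside the liver. No other genotype or genetic change is given for any group.

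The study exposed circadian-synchronized AML12 cells to pemafibrate, a selective PPARα modulator, or to its solvent DMSO. There were 3 windows: T0 to T24 for 24 h, T14 to T20 for 6 h as a day-like exposure, and T24 to T30 for 6 h as a night-like exposure. Each window and treatment has 3 libraries. How the cells were synchronized is not given in the sources used here. Both groups compared had 6 h of DMSO, so they differ in hours since T0 and not in the length of exposure.

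The values are estimated read counts per gene that the authors normalized within each window's table (normalised signal below). The T20 and T30 harvests lie in separate tables, so anything that differed between the tables and the harvest time cannot be told apart. T30 values were divided by 1.0085, which sets the median log2 difference over the 13231 genes tested to 0. Totals over genes were 32268547 to 33884634 in the 6 libraries, with 17518 to 17657 genes above 0. With replicate number as a block, p-values here measure the spread of the T30 minus T20 difference between pairs, moderated across genes. The labels do not say whether the 3 libraries of a group came from separate cultures, so that spread may be technical.

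The circadian clock of mammalian cells is a feedback loop of transcription. CLOCK and BMAL1 (the product of Arntl) bind E-boxes and switch on the Per and Cry genes, whose proteins then inhibit CLOCK and BMAL1. A linked loop runs through the ROR activators and the REV-ERB repressors (Nr1d1, Nr1d2), which compete for the same elements, among them those of Arntl. Outputs pass through the PAR bZIP factors Dbp, Tef and Hlf, which bind D-boxes, and through the competing repressor Nfil3. In the liver the loop sets daily rhythms of lipid, bile acid and glucose metabolism, and in cultured cells it runs in step for some days after synchronization.

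The E-box and the D-box are shown here as they occur before the start sites of these genes, since the clock genes below are known for being controlled through them. RefSeq promoter windows (GRCm38.p6) were found for 16 of the 18 clock activators, repressors and PAR bZIP genes, in 21 windows. The 250 bases before the start were searched on both strands. The E-box CACGTG was in 6 of the 21 windows (28.57%), against 6.02% of all 32851 windows of this length. The 6 belonged to 5 genes, Bhlhe41, Ciart, Cry1, Per1 and Tef, and Tef held 2 of them. The D-box TTANGTAA was in the window of Per3 (4.76% of the windows, against 2.06% of all). The ROR element, to which the ROR and REV-ERB receptors bind, was searched as well and matched none of the 21 windows, against 1.34% of all. A window without a match says nothing about elements elsewhere. Capitals mark the match, read on the gene's strand. Where a gene held several matches, only the first is printed.
Per1 E-box, chr11:69098773-69098798, plus strand: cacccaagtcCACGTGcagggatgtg
Cry1 E-box, chr10:85185099-85185124, minus strand: tgccggtggtCACGTGgggtgcatgc
Ciart E-box, chr3:95882329-95882354, minus strand: catctagagtCACGTGttgccggtaa
Bhlhe41 E-box, chr6:145865558-145865583, minus strand: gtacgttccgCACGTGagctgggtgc
Tef E-box, chr15:81802536-81802561, plus strand: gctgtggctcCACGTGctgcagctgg
Per3 D-box, chr4:151044854-151044879, minus strand: acccgcgcgTTATGTAAggtactcgg
The first base of the printed match lay 166 bases before the start of Per1, 60 before that of Cry1, 116 before that of Ciart, 153 before that of Bhlhe41, 127 before that of Tef and 205 before that of Per3. Ciart held further E-boxes at 58 and 44 bases and Per3 a further D-box at 158. The window of another start site of Tef held an E-box at 138. The genes with an E-box in this window differed in direction between the harvests: Cry1 rose at T30, Per1, Bhlhe41 and Tef had lower values in all 3 pairs without passing the test, and the pairs of Ciart split, as given below.

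Between T20 and T30 clock genes stood at the top of the list by p. Of the 13231 genes, 4 (0.0302%) passed the test at an adjusted p of 0.05 (limma on log2 of value plus 1, replicate number as a block, Benjamini-Hochberg adjustment over all genes). Among them Nr1d1 fell, and Cry1 and Cxcl5 rose. Dbp and Nr1d2 did not pass but were, like Nr1d1 and Cry1, among the 7 genes of smallest p.

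Nr1d1 (ENSMUSG00000020889), which encodes the heme-binding repressor REV-ERBα, gave the smallest p of all genes. Its normalised signal at T20 was 2202, 1679 and 1973 in replicates 1 to 3, and at T30 it was 673, 610 and 730. Every T30 library lay below every T20 library, at a mean of 671 ± 60.4 (SD, n = 3) against 1952 ± 263. The log2 difference was -1.53 ± 0.075 (SE), a fall to 0.345 of the T20 level, with a limma adjusted p of 0.000531. Thra, which overlaps Nr1d1 on the opposite strand, had a log2 difference of -0.03 (limma adjusted p = 0.851). The libraries keep strand, per the labels, but whether the counting used it is not given in the sources used here. The call of Nr1d1 held under 14 of the 16 alternative settings tried, the exceptions being no filter on low values and no intensity trend.

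Its paralog Nr1d2, REV-ERBβ, moved less and did not pass. Its signal was 3276, 2549 and 2411 at T20 and 1977, 1546 and 1854 at T30. The groups did not overlap, and the log2 difference was -0.61 ± 0.078 (limma adjusted p = 0.107).

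Dbp (ENSMUSG00000059824), the PAR bZIP activator that reads out CLOCK and BMAL1 activity, had the widest difference of the clock genes. The T20 libraries stood at 1125, 982 and 724 and the T30 libraries at 233, 413 and 290. The groups were apart, and the level at T30 was 0.327 of that at T20 on the scale of the fit. Its log2 difference of -1.61 ± 0.18, with pairs at -2.27, -1.25 and -1.32, gave a limma adjusted p of 0.05002, just outside the threshold. Sphk2, on the opposite strand across Dbp, had a log2 difference of -0.04 (limma adjusted p = 0.806).

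Tef, the other measured PAR bZIP gene, stood at 3571, 3103 and 2931 at T20 and at 2427, 2456 and 2535 at T30. All T30 libraries lay below all T20 libraries, with a log2 difference of -0.37 ± 0.072 (limma adjusted p = 0.242). Hlf, the remaining PAR bZIP gene, was at 1.35 or less in every library, below the minimum mean of 10 used for testing.

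Cry1 (ENSMUSG00000020038), which encodes the cryptochrome that closes the negative limb of the loop, rose. Its signal was 308, 304 and 270 at T20 and 689, 585 and 521 at T30. Every T30 library lay above every T20 library, 2.02-fold in the fit, with a log2 difference of 1.02 ± 0.090 (limma adjusted p = 0.0124). The pairs were alike, at 1.16, 0.94 and 0.95. Its paralog Cry2 went the other way in all 3 pairs. It was at 786, 661 and 634 at T20 and at 651, 552 and 585 at T30, with a log2 difference of -0.22 ± 0.076 that did not pass (limma adjusted p = 0.326). No test of the difference between the paralogs was run.

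**Figure D1:**
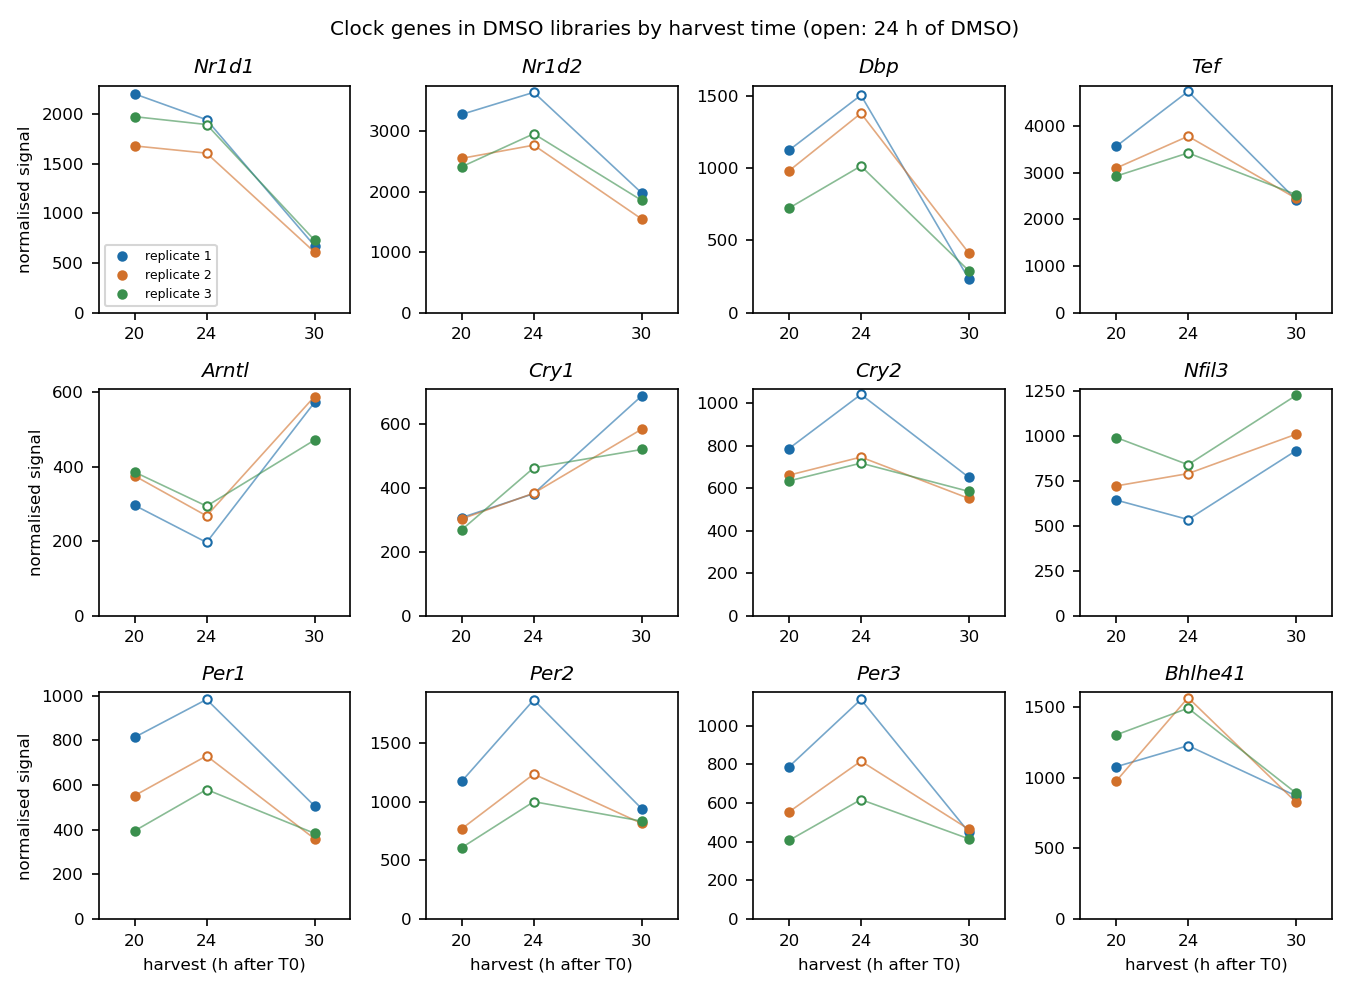
Normalised signal (vertical axes, from 0) of 12 clock genes in the DMSO libraries by hours since T0, with 1 colour per replicate number. Open points are the T24 libraries, which had 24 h of DMSO, and lines join libraries of the same number. At T30 Nr1d1 lies at 610 to 730 against 1679 to 2202 at T20, and Cry1 lies at 521 to 689 against 270 to 308.

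Among the activators, Arntl was higher at T30 in every pair without passing, and Clock and Rora were near their T20 levels. Arntl (ENSMUSG00000055116), which encodes BMAL1, was at 297, 376 and 386 at T20 and at 573, 589 and 472 at T30. Every T30 library was above every T20 library. Its log2 difference was 0.63 ± 0.13 and did not pass (limma adjusted p = 0.242), with pairs at 0.95, 0.65 and 0.29.

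Clock, the partner of BMAL1, was at 3032, 2480 and 3268 at T20 and at 3732, 2720 and 3221 at T30, and the groups overlapped. Its log2 difference was 0.14, with a 95% interval of -0.02 to 0.30. For Rora, a nuclear receptor that activates Arntl, the difference was 0.06, with an interval of -0.16 to 0.28, and without replicate 3 its sign turned to -0.073. Npas2, a Clock paralog, was listed at 0 in 5 of the 6 libraries and at 2.95 in the other. Of these 3 tested activators, 1 was higher in all 3 pairs and none was lower in all 3, where 18.4% of all genes tested were higher and 18.5% lower. None passed the test. The median log2 difference of the 3 was 0.14, against 0 over all genes tested.

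The 3 Period genes, which encode the partners of the cryptochromes, did not pass in either direction. Per1 was at 814, 553 and 395 at T20 and at 507, 360 and 384 at T30, lower in all 3 pairs with a log2 difference of -0.45 ± 0.13 (limma adjusted p = 0.291). Per3 was at 788, 554 and 406 at T20 and at 449, 464 and 415 at T30, lower in 2 pairs, with a difference of -0.35 ± 0.15 (limma adjusted p = 0.397). Both genes spread more widely at T20, where replicate 1 was the highest, than at T30. Per2 was at 1176, 770 and 610 at T20 and at 941, 815 and 835 at T30. Its pairs split, at -0.32, 0.08 and 0.45, around a mean log2 difference of 0.07 (95% interval -0.23 to 0.37), which turned to -0.12 without replicate 3.

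Of the other repressors, Bhlhe41 (DEC2) was at 1077, 975 and 1302 at T20 and at 871, 826 and 891 at T30. Bhlhe40 (DEC1) was at 2055, 2236 and 2131 at T20 and at 1894, 1961 and 1778 at T30. Both DEC genes had all T30 libraries below all T20 libraries, with log2 differences of -0.36 ± 0.079 and -0.19 ± 0.057 (limma adjusted p = 0.242 and 0.297). Nfil3, which competes with the PAR bZIP factors at D-boxes, was at 643, 722 and 991 at T20 and at 918, 1009 and 1225 at T30. It was higher in all 3 pairs although the groups overlapped (log2 difference 0.43 ± 0.072, limma adjusted p = 0.164). Ciart, a further inhibitor of CLOCK and BMAL1, was low, at 32.7 to 35.4 at T20 and 9.41 to 41.8 at T30, and its pairs split.

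Over the 11 repressors, 1 passed as higher (Cry1) and 1 as lower (Nr1d1), against 0.0151% of all genes in each direction. In all 3 pairs 2 were higher and 6 lower, where 18.4% of all genes tested were higher and 18.5% lower. The groups did not overlap for 1 higher and 4 lower members, where 3.6% of all genes tested were higher and 3.88% lower without overlap. The median log2 difference was -0.35.

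**Figure D2:**
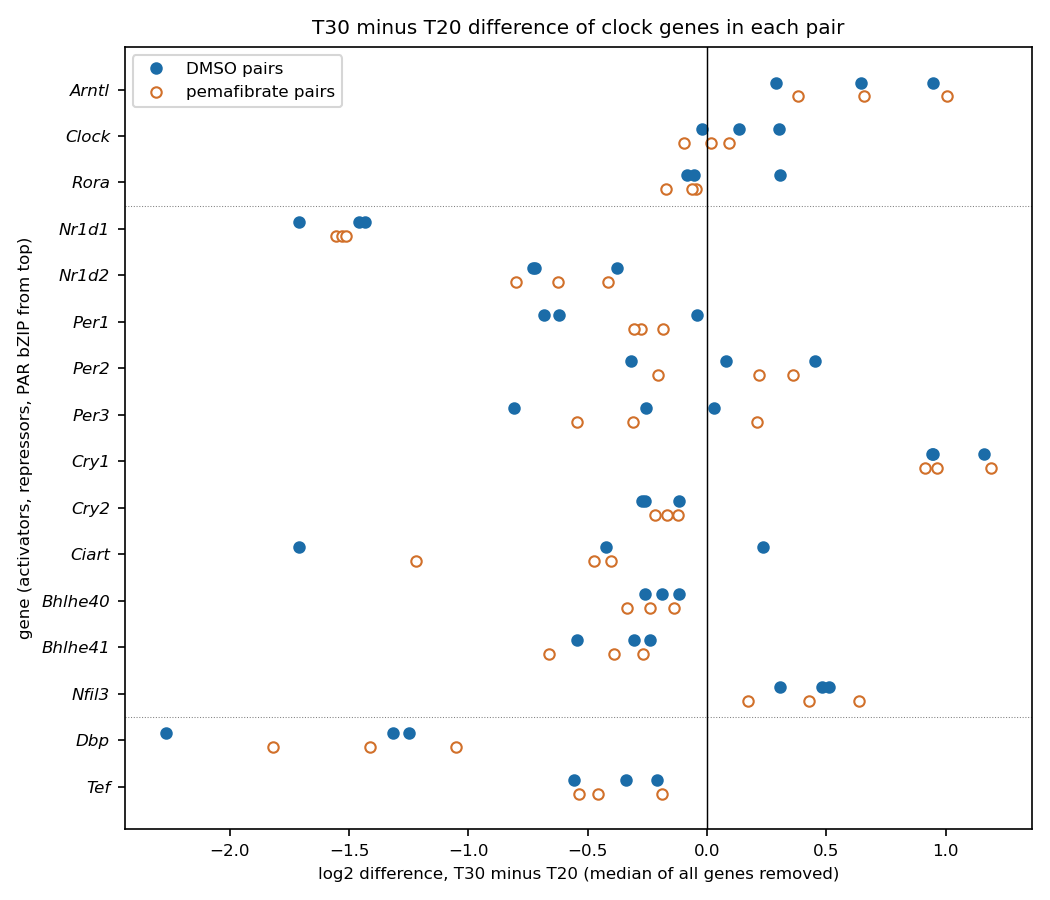
Log2 difference, T30 minus T20, of 16 clock genes in each of 3 DMSO pairs (filled) and 3 pemafibrate pairs (open), with the median over all genes removed. Nr1d1, Dbp, Nr1d2 and Tef lie below 0 and Cry1, Arntl and Nfil3 above 0 in all 6 pairs, while Per2 and Rora lie on both sides.

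The wider clock lists had medians near 0. Members ranged from -0.56 to 0.11 among the regulators and from -1.61 (Dbp) to 0.60 (Lonrf3) among the outputs. Over all genes tested, 18.4% were higher and 18.5% lower in all 3 pairs. Of 12 kinases and other regulators of the clock, 2 were higher and 3 lower in all pairs, and the smallest p was that of Csnk1e, a casein kinase that marks PER proteins for removal (log2 difference -0.12 ± 0.052, limma adjusted p = 0.398). The list of PAR bZIP genes and outputs holds 20 tested genes, of which 5 were higher and 6 lower in all pairs, with a median of 0.01. None of them passed in DMSO. A fit over both treatments, given below, called 2 of the 20 as higher and 3 as lower. Of all genes it called 0.378% as higher and 0.537% as lower. Dbp alone of these list members kept its call with the treatments averaged within replicate number. Lonrf3 (0.60 ± 0.11, limma adjusted p = 0.213), Dtx4 (0.24) and Pnpla2, the triglyceride lipase ATGL (-0.20), are further members of that list, named after their values were seen.

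The DMSO libraries harvested at T24, which had 24 h of exposure and lie in a table of their own, were set beside these without a test, after the same median correction. Nr1d1 was at 1942, 1606 and 1894 at T24, so it was below its T20 level in each replicate number and far above its T30 level. Dbp was at 1506, 1381 and 1016, higher than at T20 and at T30 in each replicate number. Arntl was at 197, 269 and 295, below its T20 level in each. In these libraries, then, the T24 values of Dbp and Arntl did not lie between those of T20 and T30. Cry1 did, at 383, 384 and 464. Per2 was at 1869, 1236 and 1001, above both other harvests in every replicate number. Harvest, exposure length and table differ together at T24 and cannot be told apart.

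The pemafibrate libraries of the same windows, 3 at T20 and 3 at T30, give the harvest difference in libraries that the comparison did not use. They lie in the same tables and carry the same replicate numbers, so they share any effect of either. In them 5 genes passed (0.0378% of those tested), among them Nr1d1, Cry1, Cxcl5 and Dbp, and the 5 include all 4 that passed in DMSO. Nr1d1 fell from 1937 ± 92.4 (SD, n = 3) to 669 ± 26.5, a log2 difference of -1.53 as in DMSO (limma adjusted p = 0.000188). Cry1 rose from 279 ± 14.7 to 571 ± 77.2, by 1.02 (limma adjusted p = 0.0328). Dbp fell from 856 ± 158 to 316 ± 42.3, with a difference of -1.43 (limma adjusted p = 0.0446). Without replicate 1 the count of 5 was 1, and without replicate 3 it was 21.

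The log2 differences of the 16 clock genes in DMSO and in pemafibrate libraries had a Pearson r of 0.99, with the same sign in 15 of 16. Over all genes tested r was 0.22, with the same sign in 58.2%. These are descriptions across genes, which are not independent. In the test of the difference between the treatments no gene passed (limma, 692 genes at an unadjusted p under 0.05, smallest adjusted p = 0.891). The DMSO minus pemafibrate difference of the harvest change had 95% intervals on the log2 scale of -0.20 to 0.20 for Nr1d1, -0.28 to 0.27 for Cry1, -0.81 to 0.44 for Dbp and -0.50 to 0.39 for Arntl.

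A fit added after the data were seen averaged the harvest difference over both treatments, with the 6 pairs as blocks. It called 121 genes (0.915%), 50 higher and 71 lower at T30. All 4 genes called in DMSO were among them. Further clock genes passed there: Dbp (log2 difference -1.52, limma adjusted p = 0.00285), Nr1d2 (-0.61, 0.00393), Tef (-0.38, 0.0209), Nfil3 (0.42, 0.0211), Arntl (0.65, 0.0233), Bhlhe41 (-0.40, 0.0233) and Bhlhe40 (-0.21, 0.0434). Clock, Rora, Per1, Per2, Per3, Cry2 and Ciart did not. DMSO and pemafibrate pairs of the same number are treated as separate in this fit. With the treatments first averaged within each replicate number, so that 3 pairs remain, 8 genes passed, among them Nr1d1, Cry1, Dbp, Nr1d2, Cxcl5 and Cnn2, and all 8 were among the 121. Tef, Nfil3, Arntl, Bhlhe41 and Bhlhe40 did not pass in that version (limma adjusted p = 0.140, 0.140, 0.140, 0.119 and 0.169). The 121 became 27, 6 and 18 without replicates 1, 2 and 3.

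**Figure D3:**
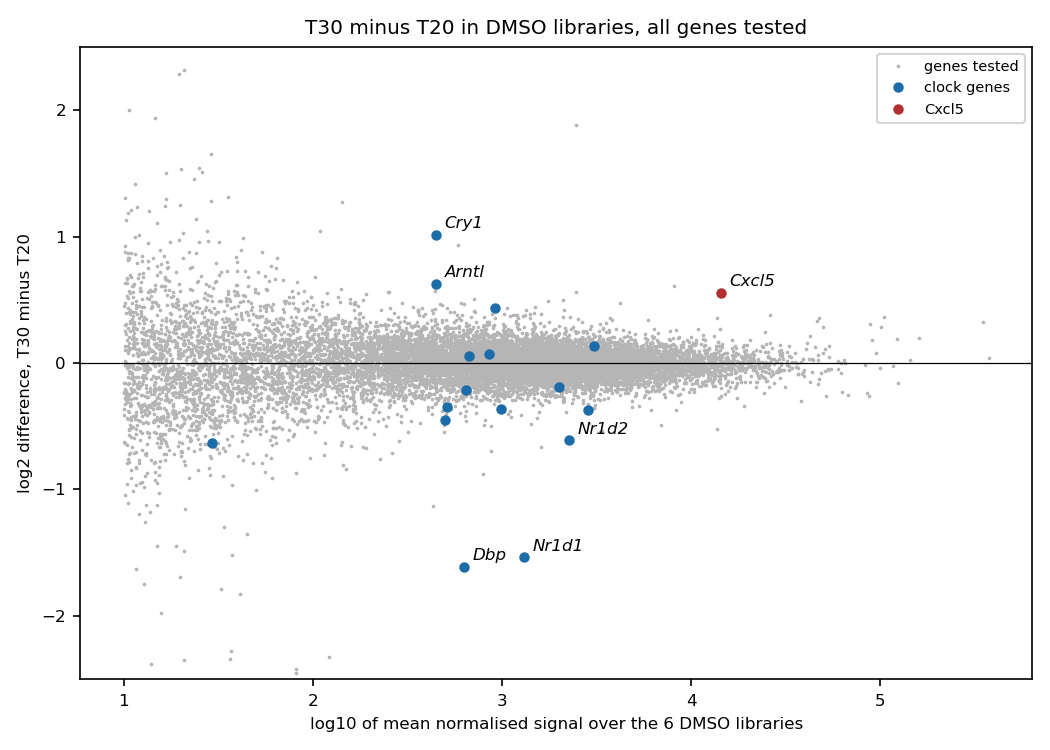
Log2 difference, T30 minus T20, in the DMSO libraries (vertical axis) against log10 of the mean normalised signal (horizontal axis) for the 13231 genes tested, with 16 clock genes in blue and Cxcl5 in red. The axis stops at 2.5 on each side, which leaves out 16 genes. Nr1d1 and Dbp lie at -1.53 and -1.61 and Cry1 at 1.02, outside most genes of the same level.

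Outside the clock, Cxcl5 rose. It (ENSMUSG00000029371), a chemokine that draws neutrophils, was at 10941, 14097 and 9656 at T20 and at 16184, 21480 and 13618 at T30. The groups overlapped, but each pair was higher by a like amount, 0.56, 0.61 and 0.50. The log2 difference was 0.56 ± 0.048 (limma adjusted p = 0.0124), a 1.47-fold rise, and it was 0.44 in the pemafibrate libraries (limma adjusted p = 0.0280).

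The calls of Cry1 and Cxcl5 rest on the pairing, among other choices: without the replicate block 1 gene passed, Nr1d1. The call of Cry1 held under 11 of the 16 alternative settings and that of Cxcl5 under 10. Neither gene passed with no filter on low values or with no intensity trend. Cxcl5 also did not pass in a shared fit of all 18 libraries (limma adjusted p = 0.203). Without replicate 1 Cxcl5 still passed and Cry1 did not, without replicate 2 Cry1 passed and Cxcl5 did not, and without replicate 3 neither passed. Over these 3 omissions the log2 difference was 0.95 to 1.06 for Cry1 and 0.53 to 0.58 for Cxcl5.

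**Figure D4:**
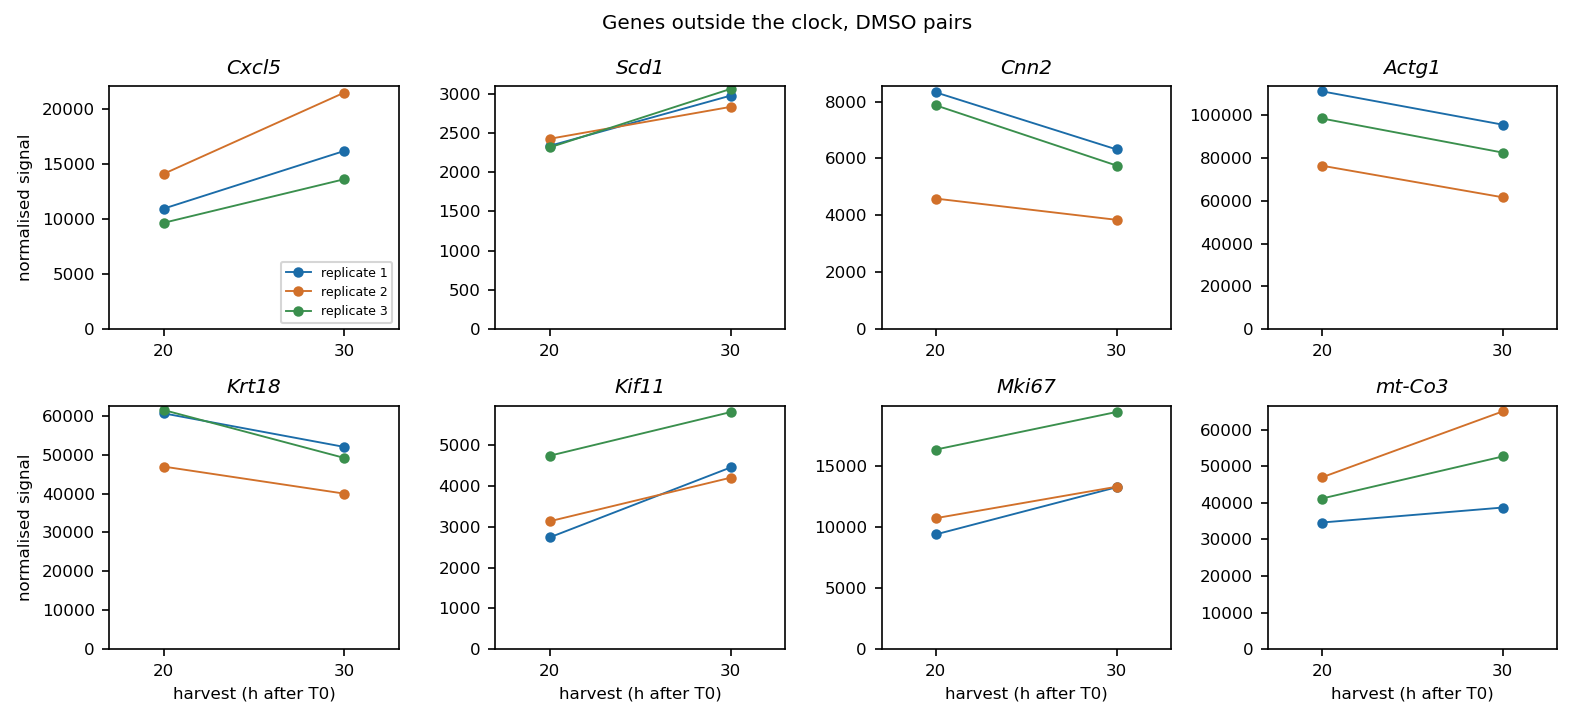
Normalised signal (vertical axes, from 0) of 8 genes outside the clock at T20 and T30, with 1 line per DMSO pair. Cxcl5 rises in all 3 pairs. The other genes also differ in 1 direction in all 3 pairs but did not pass the test in the DMSO libraries.

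Genes of G2 and mitosis were higher at T30 as a list, although none passed singly in DMSO. All 24 tested members had a positive log2 difference, 22 were higher in all 3 pairs (18.4% of all genes were) and none was lower in all 3. Their median was 0.29, with a range of 0.14 to 0.47, against 0 over all genes. The groups overlapped for every member. Kif11, the motor that separates the spindle poles, was at 2742, 3138 and 4747 at T20 and at 4459, 4208 and 5819 at T30 (log2 difference 0.47 ± 0.077, limma adjusted p = 0.159). Mki67, the proliferation marker Ki-67, was at 9376, 10703 and 16310 at T20 and at 13235, 13274 and 19386 at T30 (0.35 ± 0.059, limma adjusted p = 0.164). For both, replicate 3 was the highest at both harvests. In the pemafibrate libraries 17 of the 24 were higher in all pairs (14.8% of all genes were) with a median of 0.25. In the fit over both treatments 4 of the 24 passed, all as higher: Kif11, Mki67, Bub1 and Cenpf, where 0.378% of all genes did. With the treatments averaged within replicate number none of these 4 passed (limma adjusted p = 0.140 for Kif11, Mki67 and Cenpf and 0.182 for Bub1). In bulk RNA, more cells in a phase and more RNA per cell cannot be told apart. Members of this list are known to be transcribed together, so they are not 24 separate observations.

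Genes of the S phase did not share this direction. Of 20 tested, 1 was higher and 6 were lower in all pairs, with a median of -0.05. Over all genes tested, 18.4% were higher and 18.5% lower in all pairs. E2f1, which drives entry into S phase, had the smallest p (log2 difference -0.26 ± 0.070, limma adjusted p = 0.283). Of 16 cell cycle inhibitors and p53 targets, 6 were higher and 4 lower in all pairs, with a median of 0.02 and the smallest p for Trp53inp1, a stress-induced p53 cofactor (0.20 ± 0.054, limma adjusted p = 0.283).

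Targets of SRF and YAP, genes that respond to serum, actin tension and cell density, were lower at T30 in most members. Of 18 tested, 13 were lower and 1 was higher in all 3 pairs, where 18.5% of all genes were lower and 18.4% higher. The median was -0.18 in DMSO and -0.17 in the pemafibrate libraries. None passed in DMSO, and 7 passed as lower in the fit over both treatments, where 0.537% of all genes did: Cnn2, Actg1, Actb, Ankrd1, Vcl, Ccn1 and Thbs1. With the treatments averaged within replicate number Cnn2 alone of these 7 passed (limma adjusted p = 0.0436), and the others lay between 0.140 for Actg1 and Ankrd1 and 0.240 for Actb. Cnn2, an actin-binding calponin, was at 8322, 4590 and 7867 at T20 and at 6317, 3844 and 5750 at T30. All 3 pairs were lower, with a log2 difference of -0.37 ± 0.055 (limma adjusted p = 0.155). The related Cnn1 was the 1 member higher in all pairs, at 0.25 ± 0.076 (limma adjusted p = 0.297). Actg1, the γ-actin gene, was lower in all pairs too, with a difference of -0.26 ± 0.053 (limma adjusted p = 0.242). Actb, often used to scale other genes, differed by -0.23 ± 0.056 (limma adjusted p = 0.242).

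Immediate early genes leaned the same way. Of 19 tested, 10 were lower and 1 was higher in all pairs, with a median of -0.17 in DMSO and -0.09 in the pemafibrate libraries. The shares over all genes tested were 18.5% lower and 18.4% higher in all DMSO pairs. Egr1, a growth factor response gene, was at 2402, 1223 and 718 at T20 and at 1915, 1100 and 621 at T30. The spread between replicates was wider than the difference between harvests, which was -0.23 ± 0.066 (limma adjusted p = 0.291). In the fit over both treatments Egr1 was the 1 member of the 19 that passed, as lower (limma adjusted p = 0.0434). Of all genes 0.537% passed as lower there. With the treatments averaged within replicate number Egr1 did not pass (limma adjusted p = 0.199). Of 14 targets of TGFβ and matrix genes, 1 was higher and 4 were lower in all pairs, and the smallest p was that of Col4a2, a chain of basement membrane collagen (-0.18 ± 0.050, limma adjusted p = 0.286). Of 14 heat shock and cold-inducible genes, none was higher and 5 were lower in all pairs, with the smallest p for Hspb1 (-0.29 ± 0.052, limma adjusted p = 0.191), whose difference in the pemafibrate libraries was -0.11.

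**Figure D5:**
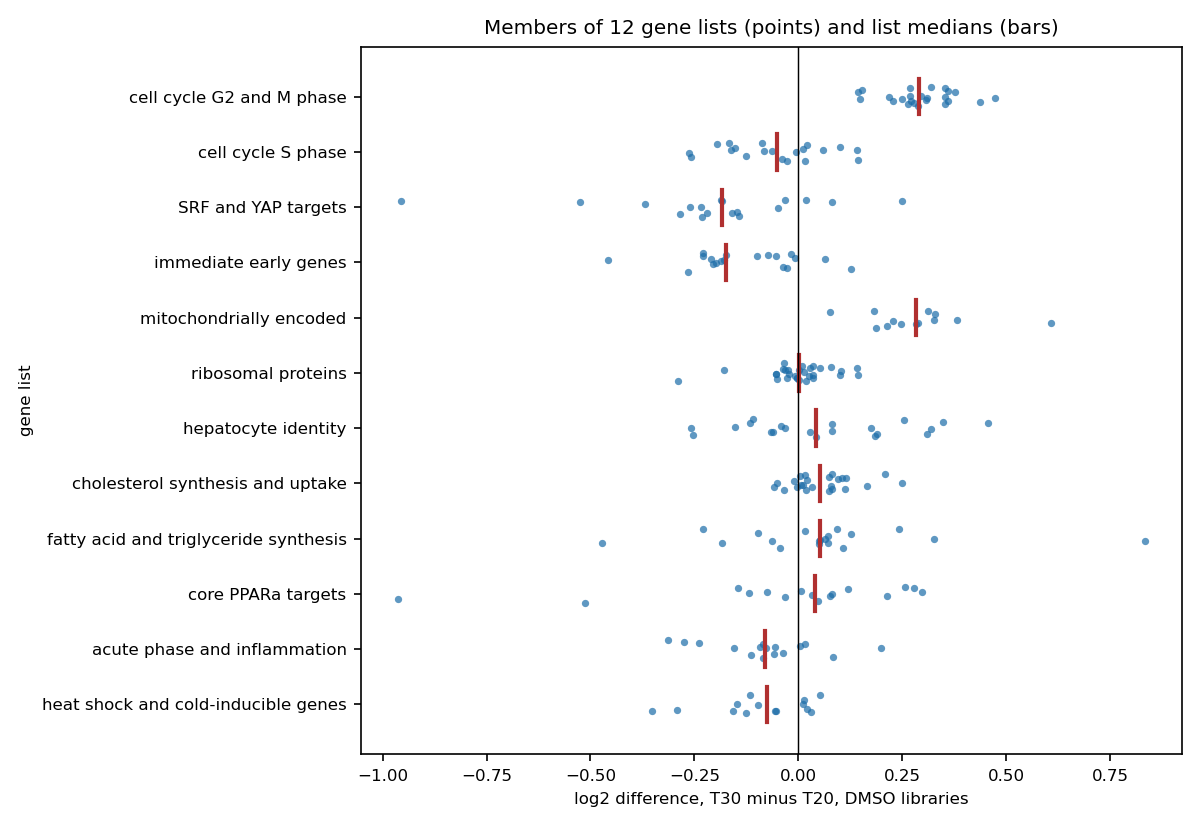
Log2 difference, T30 minus T20, in the DMSO libraries for the tested members (points) of 12 gene lists, with the list median as a bar. The G2 and M phase list and the mitochondrially encoded list lie wholly above 0, with medians of 0.29 and 0.28. The SRF and YAP and the immediate early lists have medians of -0.18 and -0.17, and the ribosomal protein list lies close to 0.

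The 13 protein-coding genes of the mitochondrial genome all had a positive difference in DMSO, 7 of them in all 3 pairs and 5 without overlap of the groups, where 18.4% and 3.6% of all genes were higher in these ways, with a median of 0.28. None passed. Their share of all signal was 2.48 to 2.82% at T20 and 2.94 to 3.44% at T30. In the pemafibrate libraries the median was 0.12 and 8 were higher in all pairs, where 14.8% of all genes were. mt-Co3, a subunit of cytochrome c oxidase, was at 34640.0, 47002 and 41204 at T20 and at 38742, 65060.2 and 52725 at T30 (log2 difference 0.33 ± 0.066, limma adjusted p = 0.242). It was higher by the same 0.33 in the pemafibrate libraries. It passed over both treatments (limma adjusted p = 0.0233) but not with treatments averaged within replicate number (0.107). mt-Nd3, named after its values were seen, had the widest difference in DMSO, 0.61, and 0.02 in the pemafibrate libraries. The mitochondrial share of signal moved with the harvest, and its part in the other differences was not tested. The 30 ribosomal protein genes had a median close to 0, with 3 higher and 1 lower in all pairs.

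Lists of liver metabolism had small medians. Of all genes tested, 18.4% were higher and 18.5% lower in all 3 pairs. Of 24 genes of cholesterol synthesis and uptake, 9 were higher and none was lower in all 3 DMSO pairs. Their median was 0.05, and it was -0.01 in the pemafibrate libraries. Idi1, the isomerase of the mevalonate pathway, had the smallest p (log2 difference 0.21 ± 0.062, limma adjusted p = 0.297). Of 19 genes of fatty acid and triglyceride synthesis, 11 were higher and 3 lower in all pairs, with a median of 0.05. In the pemafibrate libraries 5 were higher and 1 was lower in all pairs, with a median of 0.03. Of all genes tested, 14.8% were higher and 15.3% lower in all pemafibrate pairs. The fit over both treatments called 1 of the 19 as higher and 1 as lower, where it called 0.378% and 0.537% of all genes. Scd1, the desaturase that makes oleate, was at 2336, 2426 and 2316 at T20 and at 2975, 2832 and 3061 at T30. The replicates were tight and the groups did not overlap. Its log2 difference of 0.32 ± 0.058 did not pass in DMSO (limma adjusted p = 0.191) and passed over both treatments (0.31, limma adjusted p = 0.0204), though not with treatments averaged within replicate number (0.140). Mlxipl, the glucose sensor ChREBP, differed by -0.47 in DMSO and by 0.32 in the pemafibrate libraries, and was named after its values were seen.

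Of 16 core targets of PPARα, 5 were higher and 4 lower in all pairs of vehicle-treated cells, with a median of 0.04. Of all genes tested, 18.4% were higher and 18.5% lower in all pairs. Acot1, a thioesterase of fatty acyl-CoA, was at 2164, 2626 and 1807 at T20 and at 2781, 3072 and 2047 at T30. Each pair was higher at T30, with a log2 difference of 0.26 ± 0.059 (limma adjusted p = 0.242), which passed over both treatments (0.23, limma adjusted p = 0.0204) but not with treatments averaged within replicate number (0.140). Of 19 genes of glycolysis and gluconeogenesis, 2 were higher and 6 lower in all pairs, and the smallest p was that of Aldoa, a glycolytic aldolase (-0.19 ± 0.055, limma adjusted p = 0.293). Aldoa passed as lower over both treatments (limma adjusted p = 0.0434) but not with treatments averaged within replicate number (0.240).

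Among stress lists, the 14 glucocorticoid targets had 8 members higher and 2 lower in all pairs and a median of 0.11. For these lists too, the shares over all genes tested were 18.4% higher and 18.5% lower in all pairs. Lcn2, a secreted acute phase protein, had the smallest p of that list and of the acute phase list, and was lower in all pairs (-0.28 ± 0.048, limma adjusted p = 0.191). The acute phase and inflammation list had 1 of 16 members higher and 7 lower in all pairs, with a median of -0.08. Of 24 genes of the amino acid and unfolded protein responses, 4 were higher and 6 lower in all pairs, and Pdia6, a disulfide isomerase, had the smallest p (0.16 ± 0.049, limma adjusted p = 0.296). Of 14 hypoxia targets 2 were higher and 1 lower, and Ndrg1 had a difference of 0.26 ± 0.050 (limma adjusted p = 0.242). Of 14 NRF2 targets 1 was higher and 4 were lower, and Abcc4, a transporter of organic anions, differed by -0.15 ± 0.047 (limma adjusted p = 0.299). In the fit over both treatments Lcn2 and Abcc4 passed as lower (limma adjusted p = 0.0255 and 0.0466). Ndrg1 and the glucocorticoid target Tsc22d3 passed there as higher (0.00834 and 0.0379). With the treatments averaged within replicate number none of them passed (limma adjusted p = 0.140, 0.251, 0.139 and 0.172).

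The hepatocyte label was checked on 29 hepatocyte genes, of which 21 reached the minimum mean. They summed to 204316 to 232737 at T20 and to 189345 to 220453 at T30. Much of this came from Krt8 and Krt18, with means of 73578 and 56340 at T20. Alb, the gene of serum albumin, was at 6690, 3887 and 3146 at T20 and at 7129, 3967 and 3412 at T30, so replicate 1 was the highest at both harvests. Apoa1, Apoa2, Apoh, Ahsg, Fgg, Tdo2, Cps1 and Cyp2e1, all strongly expressed in liver, were below the minimum. Of the 21 tested, 8 were higher and 5 lower in all pairs, where 18.4% of all genes were higher and 18.5% lower. The keratins Krt18 and Krt8 had the smallest p, at -0.26 ± 0.051 and -0.25 ± 0.051 (limma adjusted p = 0.242 for each), and both passed as lower over both treatments (limma adjusted p = 0.00737 for each) but not with treatments averaged within replicate number (0.140 for each).

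Markers of other cell types were summed in each library. Endothelial markers summed to 39.7 to 69.9 at T20 and to 26.5 to 41.5 at T30, and stellate and fibroblast markers to 136 to 188 and 120 to 231. Cholangiocyte markers summed to 55501 to 76664 and 55788 to 78097. Among them Krt19 had means of 11184 at T20 and 10443 at T30, higher than Alb in any of the 6 libraries. Of the macrophage and leukocyte markers 3 of 8 were at 0 in all 6 libraries, and the list summed to 3818 to 5304 and 4160 to 5966, most of it from Cd14. No marker list had a member that passed between the harvests.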

How the data were processed

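Libraries of poly(A) RNA from AML12 cells keep strand through dUTP, per the labels' protocols. The deposited values are a normalised signal: estimated counts that the authors scaled within each of 3 tables, per the file headers. For the counting, the aligner, build and annotation were not given in the sources used here. Whole reads could not be recovered from the values, so no count model was used and the depth before scaling is unknown. No column was left out.

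Of 35551 genes per table, 35181 matched a symbol and 370 did not. The 13231 genes whose mean in the 6 DMSO libraries reached 10 (22320 lay below) were tested on log2(value + 1), a scale that understates the change of low genes, with limma 3.58.1 (intensity trend) in R 4.3.3, two-sided, and Benjamini-Hochberg adjustment at 0.05. The median T30 minus T20 log2 difference (0.0123 in DMSO, 0.0134 in pemafibrate libraries) was removed first, and T24 values were shifted by the same rule (-0.0234). Replicate number was a block: the labels number the libraries, and after removing group means, libraries correlated at 0.404 to 0.424 within a number and at -0.243 to -0.164 between numbers. The fit was tested on simulated data.

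The text names all measured clock activators and repressors, Dbp, Tef and Hlf, genes that passed, and in each other list the member of smallest p; other names were chosen after their values were seen. Some tested genes are not reported here and were left out of the lists; counts over all genes include them. Members and lists were chosen with earlier results of these data known. Alternatives covered the block, centring, filter, pseudocount, variance model, shared fits and each left-out replicate. Promoter windows came from RefSeq (GRCm38.p6) and gene overlaps from GENCODE (GRCm38). Coordinates are 1-based.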

Additional observations from a re-analysis of the deposited data

How the results depend on the processing

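The count of genes past the threshold in DMSO (4) stayed within 1.5 times under 9 of 16 settings, though the genes were not always the same. Without replicates 1, 2 and 3 the counts were 7, 8 and 3, of which 3, 2 and 1 were among the 4. It was 1 with no replicate block (225 at an unadjusted p under 0.05), 0 with no filter on low values (1780) and 0 with no intensity trend (1300) in limma, 13 and 8 in shared fits of 12 and 18 libraries, and 3 to 8 with a replicate left out. All 4 genes passed in the fit of 12 libraries, and 3 of them in that of 18. In the pemafibrate libraries the count of 5 became 1 with no replicate block and 1 to 21 with a replicate left out (1 without replicate 1, 21 without replicate 3). The added count of 121 over both treatments became 3 with no replicate block, 8 with treatments averaged within replicate number, 5 with no intensity trend and 6 to 27 with a replicate left out. The count for the difference between treatments was 0 with and without the block (692 and 118 at an unadjusted p under 0.05). The causes were not tested. Rora and Per2 changed sign without replicate 3 (-0.073 and -0.12), and with a replicate left out they ranged from -0.073 to 0.13 and from -0.12 to 0.27. Adjusted p over the alternatives was 1.2e-08 to 0.495 for Nr1d1, 0.00261 to 0.675 for Cry1 and 0.00430 to 0.693 for Dbp (limma). Depth before scaling is unknown, so no counting limit can be given for low genes such as Ciart.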

Other observations

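A set of 6 genes that encode actin-binding or related proteins, picked with their values in view and so no evidence on actin genes as a group, passed as lower at T30 in the fit over both treatments: Csrp1 (log2 difference -0.31, limma adjusted p = 0.00285), Cotl1 (-0.35, 0.00594), Gsn, the filament-severing gelsolin (-0.27, 0.00594), Actn1, an α-actinin (-0.29, 0.00665), Wdr1 (-0.23, 0.00665) and Vil1, villin (-0.29, 0.00834). All 6 pairs were lower for each of them. With the treatments averaged within replicate number none of the 6 passed (limma adjusted p from 0.0520 for Csrp1 to 0.140 for Wdr1). In the DMSO libraries alone none of these passed. Actn1 was at 25394, 16614 and 22176 at T20 and at 19054, 13407 and 18107 at T30.

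From the Ugt2b family, which encodes enzymes that couple steroids and drugs to glucuronic acid, 3 genes picked in the same way passed as higher at T30 over both treatments: Ugt2b34 (0.30, limma adjusted p = 0.00665), Ugt2b35 (0.31, 0.0358) and Ugt2b36 (0.24, 0.0379). None passed with the treatments averaged within replicate number (limma adjusted p = 0.0553, 0.140 and 0.186). They are similar in sequence, so reads may be shared between them. In DMSO Ugt2b34 was at 4197, 3129 and 2430 at T20 and at 5537, 3747 and 3232 at T30.

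Col7a1, a collagen of anchoring fibrils, was at 996, 827 and 1424 at T20 and at 574, 606 and 796 at T30, a log2 difference of -0.69 (limma adjusted p = 0.107) that was 0.07 in the pemafibrate libraries. Ypel2 differed by 0.42 in DMSO (limma adjusted p = 0.149) and by 0.35 in the pemafibrate libraries. The predicted gene Gm12715 was listed at 22.1, 7.93 and 43.3 at T20 and at 0 in all 3 T30 libraries. It did not pass (limma adjusted p = 0.156), and its difference in the pemafibrate libraries was -0.01. Gm2223, also predicted, was listed at 135, 142 and 362 at T20 and at 0, 0 and 122 at T30, and did not pass (limma adjusted p = 0.213). In the fit over both treatments neither passed (limma adjusted p = 0.151 for Gm12715 and 0.0540 for Gm2223, with log2 differences of -2.21 and -5.17).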
